A study of Mus musculus with 38 samples.

Results

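The Fc receptor genes are the 6 mouse genes Fcer1g, Fcgr1, Fcgr2b, Fcgr3, Fcgr4 and Fcrls. They were chosen by symbol as the Fcγ receptors, their signaling chain and an Fc receptor-like gene of microglia. Earlier results of these data were known when they were chosen. They are 6 of the 48709 genes counted in 38 hippocampal RNA-seq libraries, 1 library per mouse. All mice had the C57BL/6 background, and the paper describes them as male, which RNA levels given below do not bear out for part of the libraries. They were wild-type (WT) or carried the APPPS1ΔE9 transgenes, which the labels shorten to APPdelta9. These encode a mutant amyloid precursor protein and a presenilin-1 that lacks exon 9. The mice received chow with placebo or with anle138b, a diphenylpyrazole compound that binds protein aggregates. The groups are named for the start of treatment, before the onset of plaques or after it. The pre-plaque group was 6 months old when analyzed, with 4 mice in each combination of genotype and chow. The post-plaque group was 10 months old, with 5 WT mice on either chow and 5 APPPS1ΔE9 mice on placebo and 7 on anle138b. The transgenes of this line are expressed from the mouse prion protein promoter, mainly in neurons, so the cells that express Fc receptors are not themselves the main site of the transgene. Whole hippocampal tissue was sequenced, in which more cells of a type and more RNA per cell cannot be told apart.

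Fcγ receptors bind the constant part of immunoglobulin G, and in the brain they are found mainly on microglia and on macrophages of the vessels and borders. Fcer1g encodes the common γ chain, a small membrane protein whose immunoreceptor tyrosine-based activation motif (ITAM) recruits the kinase Syk once a partner receptor is cross-linked. Fcgr1 (high affinity), Fcgr3 and Fcgr4 (lower affinity) are activating receptors that need this chain for signaling and surface expression. Fcgr2b is the only inhibitory Fcγ receptor of the mouse, and its inhibitory motif (ITIM) recruits the lipid phosphatase SHIP1, the product of Inpp5d. Fcrls is related to the Fc receptors in sequence and is used as a marker of resident microglia.

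Of the members, 4 lie within a single stretch of chromosome 1 (GRCm38): Fcgr2b (ENSMUSG00000026656, chr1:170958617-170976547, minus strand), Fcgr4 (ENSMUSG00000059089, chr1:171018920-171029761, plus strand), Fcgr3 (ENSMUSG00000059498, chr1:171051174-171064935, minus strand) and Fcer1g (ENSMUSG00000058715, chr1:171229572-171234365, minus strand). Fcgr1 (ENSMUSG00000015947, chr3:96282909-96293969, minus strand) and Fcrls (ENSMUSG00000015852, chr3:87250758-87263738, minus strand) are on chromosome 3. All 6 are annotated as protein-coding, and reads were counted on their exons. Fcgr3 and Fcgr2b are close paralogs: 166 stretches of 50 bases, 9.6% of those in the Fcgr3 transcripts and 2.9% of those in Fcgr2b, are identical in both. Reads from these stretches cannot be assigned to either gene, so their levels carry this uncertainty. A further 155 exonic bases of Fcgr2b overlap the antisense gene Gm38204, and whether the counting used strand is not given in the sources used here.

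The RefSeq promoters of the members (GRCm38.p6, 250 bases before to 50 bases after the start) were searched on both strands for GAGGAA. It is the core recognized by the myeloid transcription factor PU.1. The letters were found in promoters of 4 members, Fcgr1, Fcgr3, Fcgr4 and Fcrls, and not in those of Fcer1g and Fcgr2b, beside 31.3% of 27025 mouse genes and 28.3% of 32851 promoters of the same length. The longer form GAGGAAGT, which contains the shorter, was found only in the Fcgr4 promoter among the members and in 3.2% of all promoters. A match describes the letters alone, and its part in the levels of the members was not tested. The windows that hold the match are shown because they are what the 4 promoters share, 5′ to 3′ on the strand of the gene and without annotated exons, with the match or its reverse complement TTCCTC in capitals.
Fcgr1, chr3:96293970-96294084, minus strand: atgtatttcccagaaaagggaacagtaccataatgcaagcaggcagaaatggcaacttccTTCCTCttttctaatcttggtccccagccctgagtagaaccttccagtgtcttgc
Fcgr3, chr1:171059404-171059469, minus strand: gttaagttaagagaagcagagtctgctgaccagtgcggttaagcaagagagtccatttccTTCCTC
Fcgr4, chr1:171018844-171018919, plus strand: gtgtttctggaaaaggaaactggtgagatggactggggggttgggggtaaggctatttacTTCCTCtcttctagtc
Fcrls, chr3:87263603-87263677, minus strand: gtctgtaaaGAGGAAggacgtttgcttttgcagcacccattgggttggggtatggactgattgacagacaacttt
In Fcgr1, Fcgr3 and Fcgr4 the match lies on the strand opposite to the gene, with its first base 55, 6 or 15, and 22 bases before the RefSeq start, and in Fcrls on the same strand, 144 bases before it. Fcgr3 has 2 RefSeq starts, hence 2 distances. For Fcgr3 and Fcrls the RefSeq start lies inside the gene span given above, so their windows are within the annotated gene. Of the 250 bases before the Fcrls start, 136 are annotated as exon.

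Library totals ranged from 15847985 to 31895808 counts. App was at 1506 to 1809 CPM (counts per 1000000 counts of the library) in the WT mice and at 3228 to 4318 CPM in the APPPS1ΔE9 mice, and Prnp, whose promoter drives the transgenes, at 919 to 1232 and 2238 to 2928 CPM. For the 4 WT mice that received placebo at 6 months, the genotype label names the transgene while the titles say WT. They were used as WT, and their App levels of 1624 to 1796 CPM lay within the range of the other WT mice. Xist, which is transcribed in female cells, exceeded 100 CPM in 12 of the 38 libraries: 3 of 4 and 2 of 4 WT mice on placebo and anle138b at 6 months, 3 of 5 and 3 of 5 at 10 months, and 1 of 7 anle138b-treated APPPS1ΔE9 mice at 10 months. The paper's statement that all mice were male differs from these values for the 12 libraries, and the reason is not known. Sex by this measure was unevenly spread over genotype. Sequencing lanes almost coincided with the groups, so lane and genotype cannot be told apart, nor lane and chow in the APPPS1ΔE9 mice at 6 months. Choroid plexus markers, which follow how much of that tissue was dissected along, had a summed level of 63.99 to 7941 CPM at 6 months and 32.2 to 4331 CPM at 10 months.

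The level of the members per exon length differed by more than an order of magnitude. The mean over all 38 libraries was 11.9 ± 3.07 RPKM (RPKM is CPM per kilobase of exon, SD) for Fcrls, 11.8 ± 3.27 for Fcer1g, 7.83 ± 2.06 for Fcgr3, 1.56 ± 0.409 for Fcgr1, 0.993 ± 0.399 for Fcgr2b and 0.208 ± 0.146 for Fcgr4. Fcrls and Fcer1g could not be ordered, with Fcrls the higher in 14 of 38 libraries. Fcer1g exceeded Fcgr3, Fcgr3 exceeded Fcgr1 and Fcgr2b exceeded Fcgr4 in 38 of 38 libraries each, and Fcgr1 exceeded Fcgr2b in 36. The orders of Fcer1g over Fcgr3 and of Fcgr1 over Fcgr2b rest on the division by exon length. Without it the mean CPM ran the other way, at 10.3 for Fcer1g and 13.6 for Fcgr3, and at 4.03 for Fcgr1 and 5.75 for Fcgr2b. The low-affinity activating receptor Fcgr3 was thus the most abundant Fcγ receptor transcript of the tissue, and Fcgr4 the least, with 0 to 18 counts per library. Fcgr4 was listed at 0 in 1 library, where up to 3 counts cannot be told from none. Counts of the other 5 members were between 49 and 1158.

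**Figure D1:**
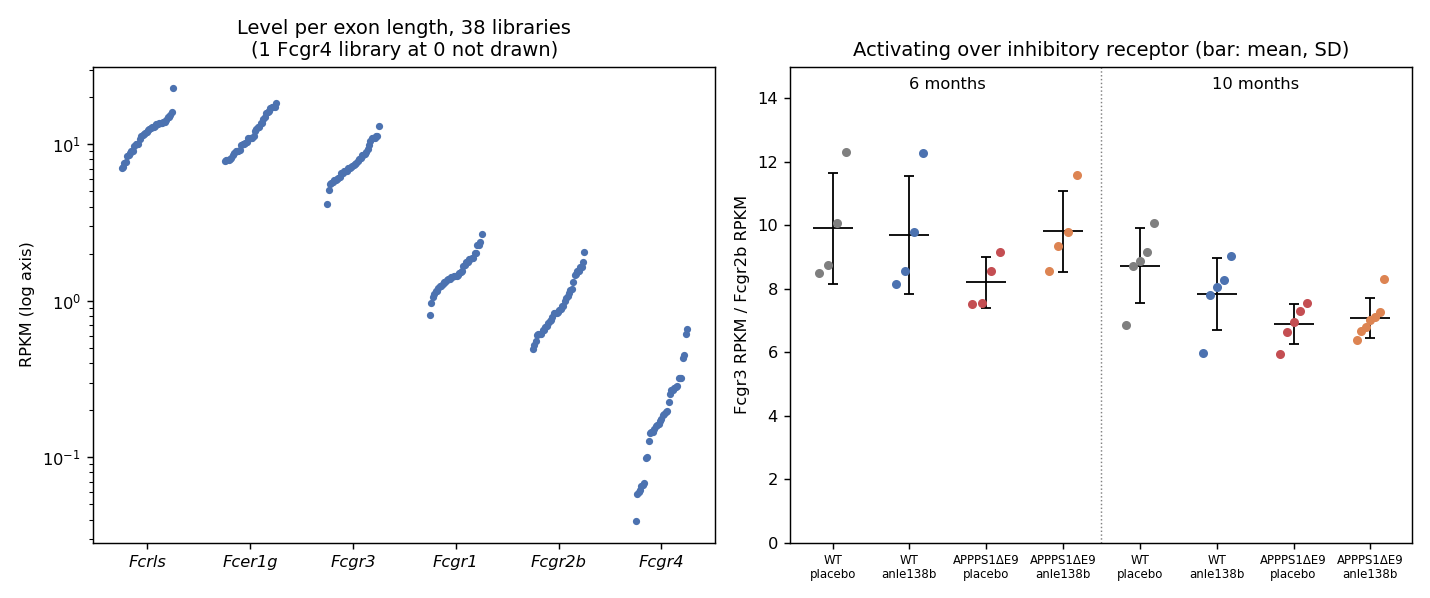
Left, level of each member in RPKM (log axis), 1 point per library. Right, ratio of Fcgr3 to Fcgr2b RPKM by group, 1 point per mouse, with mean and SD. Fcrls and Fcer1g are highest at a mean of 11.9 and 11.8 RPKM and Fcgr4 is lowest at 0.208 RPKM. The ratio averages 8.73 in placebo-treated WT and 6.88 in placebo-treated APPPS1ΔE9 mice at 10 months, with overlapping points.

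At 10 months, all 5 members that could be tested were higher in APPPS1ΔE9 than in WT mice, by 1.53-fold to 2.15-fold on placebo and by 1.72-fold to 1.97-fold on anle138b. The question of this comparison is which genes change with the transgenes once plaques are present, and the mice of the 2 chows are separate animals. With edgeR's quasi-likelihood test at a Benjamini-Hochberg adjusted p under 0.1, 4 of 5 tested members were called on placebo, beside 0.324% of all tested genes, and 5 of 5 on anle138b, beside 0.723%. All called members were higher in APPPS1ΔE9 mice, which held for 0.324% and 0.694% of all tested genes. The median log2 fold change of the tested members was 0.76 on placebo and 0.84 on anle138b, and that of all tested genes was −0.0025 in both. Over both chows, 5 of 5 were called, beside 1.43% of genes in either direction and 1.32% higher in APPPS1ΔE9 mice. Since the members were chosen with earlier results of these data known, these shares are descriptions and no test of the set. Fcgr4 did not pass the filter on low counts in any comparison of 2 groups.

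**Figure D2:**
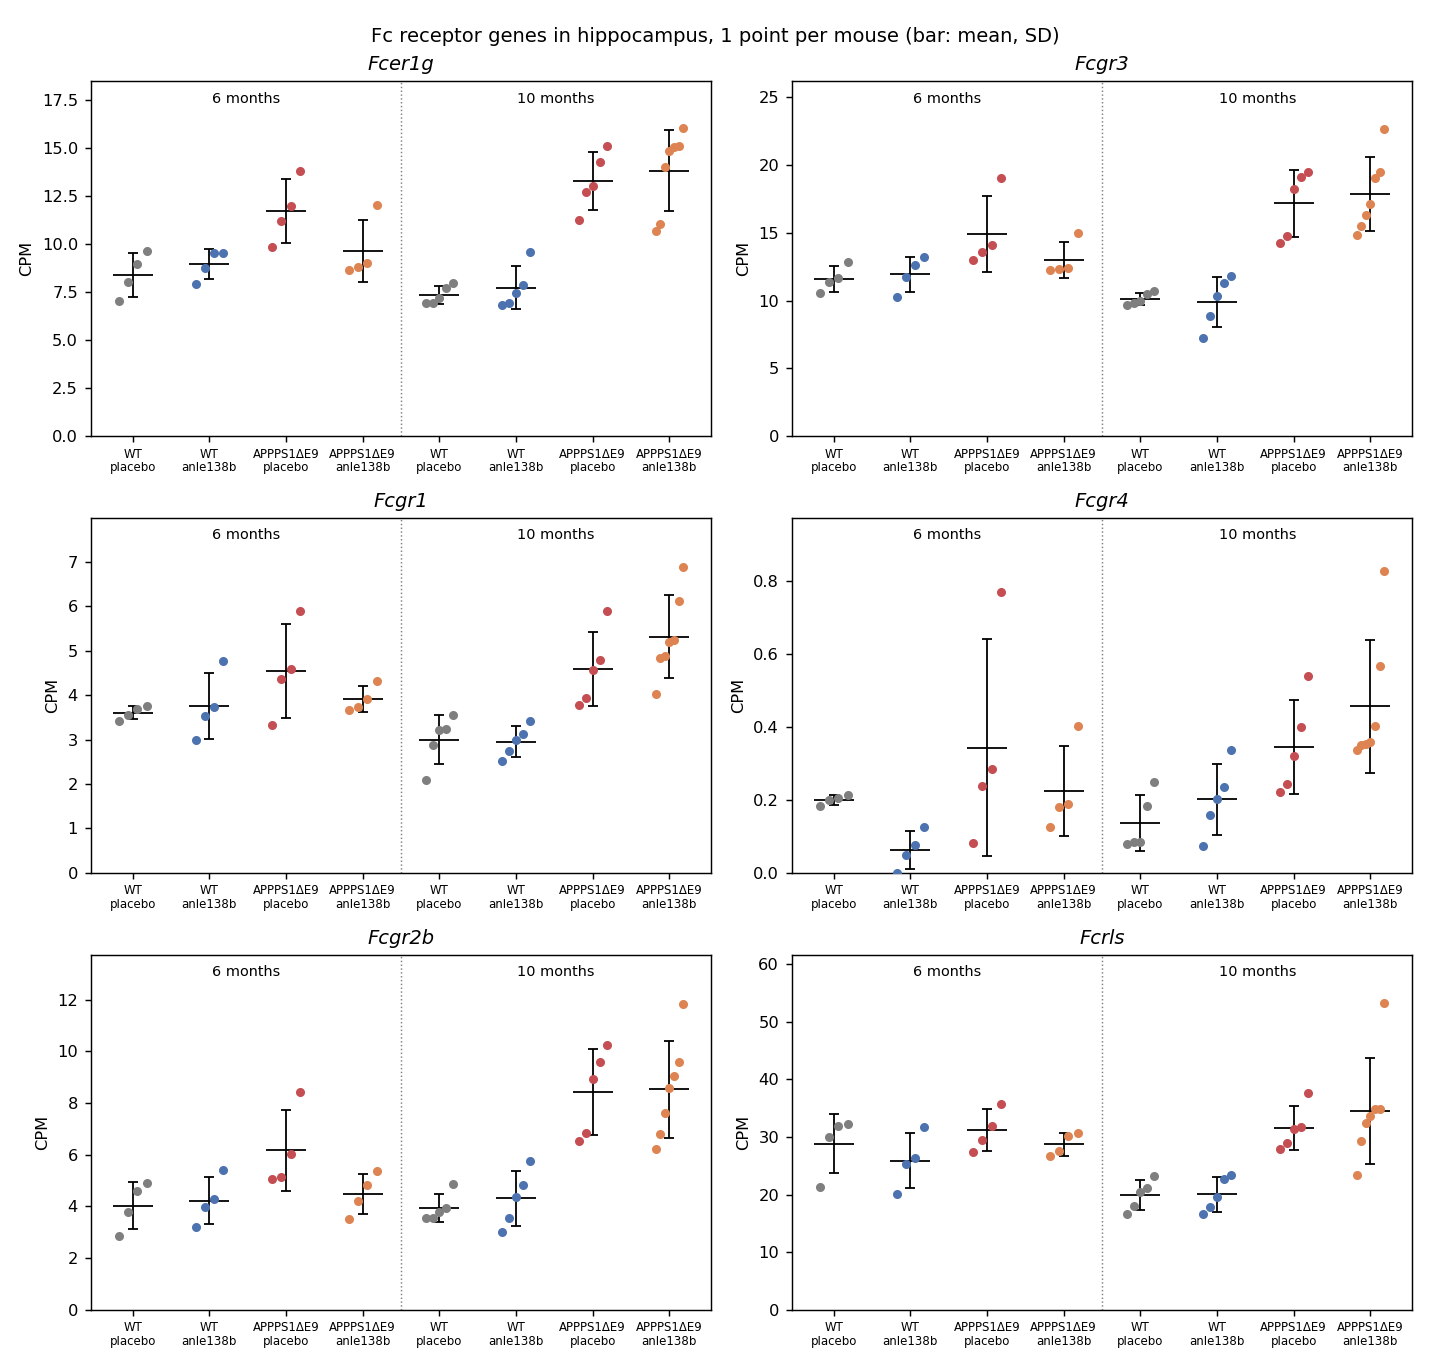
CPM of each member by group, 1 point per mouse, with mean and SD. At 10 months the APPPS1ΔE9 points of Fcer1g (10.7 to 16.02 CPM) lie above the WT points (6.79 to 9.56 CPM) on both chows. At 6 months the genotypes are closer, and Fcgr4 stays under 1 CPM throughout.

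Fcer1g, the γ chain, was measured at 6.90, 6.94, 7.17, 7.70 and 7.96 CPM in the placebo-treated WT mice and at 11.2, 12.7, 13.03, 14.26 and 15.1 CPM in the placebo-treated APPPS1ΔE9 mice of the post-plaque group. On anle138b, the WT mice were at 6.79, 6.93, 7.43, 7.87 and 9.56 CPM and the 7 APPPS1ΔE9 mice ranged from 10.7 to 16.02 CPM, with a median of 14.8. The genotypes did not overlap on either chow. The log2 difference was 0.85 ± 0.09 (SE; edgeR adjusted p = 0.0026) on placebo and 0.83 ± 0.12 (adjusted p = 0.0080) on anle138b. Its intervals, 0.64 to 1.06 and 0.56 to 1.10 (95%), were among the narrowest of the members.

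Fcgr3, the main activating receptor by level, was at 9.68, 9.85, 9.98, 10.47 and 10.7 CPM in the placebo-treated WT mice and at 14.2, 14.8, 18.2, 19.1 and 19.5 CPM in the placebo-treated APPPS1ΔE9 mice. On anle138b it was at 7.26, 8.84, 10.3, 11.3 and 11.8 CPM in WT and at 14.9 to 22.6 CPM, with a median of 17.1, in APPPS1ΔE9 mice. Again every transgenic mouse exceeded every WT mouse of the same chow. The log2 differences were 0.76 ± 0.10 (SE; edgeR adjusted p = 0.010) and 0.84 ± 0.13 (adjusted p = 0.011).

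Fcgr1, the high-affinity receptor, had lower counts and a wider error. It was at 2.10, 2.88, 3.21, 3.24 and 3.56 CPM in placebo-treated WT and at 3.79, 3.93, 4.56, 4.79 and 5.89 CPM in placebo-treated APPPS1ΔE9 mice. On anle138b it was at 2.52, 2.74, 3, 3.12 and 3.41 CPM in WT and at 4.04 to 6.90 CPM, with a median of 5.21, in APPPS1ΔE9 mice. The ranges were separate on both chows, but the log2 difference on placebo, 0.61 ± 0.17 (SE), did not pass the test over all genes (edgeR adjusted p = 0.44, unadjusted p = 0.0039). On anle138b the log2 difference was 0.84 ± 0.14 (adjusted p = 0.012), and over both chows it was 0.73 ± 0.11 (adjusted p = 0.00024).

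Fcgr4, a receptor for IgG2 subclasses, rested on 2, 2, 2, 4 and 5 counts in the placebo-treated WT mice and on 6, 6, 7, 10 and 13 counts in the placebo-treated APPPS1ΔE9 mice. These were 0.0778 to 0.250 CPM and 0.221 to 0.539 CPM, which overlapped. On anle138b there were 2 to 8 counts in the WT mice and 8 to 18 in the APPPS1ΔE9 mice, or 0.0733 to 0.337 CPM and 0.336 to 0.828 CPM, again with a small overlap. The two-sided exact permutation test of the CPM values, which was chosen after the values were seen, gave p = 0.024 on placebo and p = 0.0063 on anle138b. With no filter on low counts, the log2 difference over both chows was 1.28 (edgeR adjusted p = 0.019), and DESeq2 gave 1.30 (adjusted p = 0.011). It was not called within either chow, where the adjusted p was 0.87 and 0.57 with no filter and 0.81 and 0.39 with DESeq2.

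Fcgr2b, the inhibitory receptor, had the largest log2 difference of the tested members. It was at 3.53, 3.54, 3.77, 3.94 and 4.87 CPM in placebo-treated WT and at 6.53, 6.84, 8.91, 9.58 and 10.2 CPM in placebo-treated APPPS1ΔE9 mice. On anle138b it was at 3, 3.56, 4.36, 4.84 and 5.75 CPM in WT and at 6.22 to 11.8 CPM, with a median of 8.57, in APPPS1ΔE9 mice. The genotypes did not overlap on either chow. The log2 differences were 1.10 ± 0.15 (SE; edgeR adjusted p = 0.011) and 0.98 ± 0.19 (adjusted p = 0.037), a 2.15-fold and a 1.97-fold higher level. Their intervals, 0.77 to 1.43 and 0.58 to 1.38, overlapped those of the other members.

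Fcrls, the marker of resident microglia, was at 16.5, 18.04, 20.5, 21.2 and 23.3 CPM in placebo-treated WT and at 27.9, 29, 31.3, 31.8 and 37.7 CPM in placebo-treated APPPS1ΔE9 mice. On anle138b it was at 16.6, 17.8, 19.6, 22.7 and 23.5 CPM in WT and at 23.4 to 53.3 CPM, with a median of 33.6, in APPPS1ΔE9 mice. The groups overlapped on anle138b only, where the lowest APPPS1ΔE9 mouse was just below the highest WT mouse. The log2 differences were 0.66 ± 0.11 (SE; edgeR adjusted p = 0.033) and 0.78 ± 0.17 (adjusted p = 0.087). The second was the least secure call: it was lost in 8 of 12 fits that each left out a library, with an edgeR adjusted p of up to 0.30 without replicate 2 of the anle138b-treated WT mice.

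Without overlap, every APPPS1ΔE9 value exceeded every WT value for all 5 tested members on placebo, beside 1.08% of all tested genes. On anle138b this held for 4 of 5, beside 0.799%. These shares, too, describe members chosen with earlier results known. Leaving out the libraries with high Xist, an alternative added after the data were seen, left 2 WT mice on each chow. The log2 differences were then 0.58 to 1.25 on placebo and 0.82 to 1.28 on anle138b, but 0 of 5 members were called on placebo, where 8 genes were called in all, and 3 of 5 on anle138b, where 51 were. Over both chows the 5 members were called in this fit too. With the summed Y-linked expression as a covariate, Fcgr2b (adjusted p = 0.12) and Fcgr3 (adjusted p = 0.31) were not called on placebo, with log2 differences of 1.27 and 0.75.

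**Figure D3:**
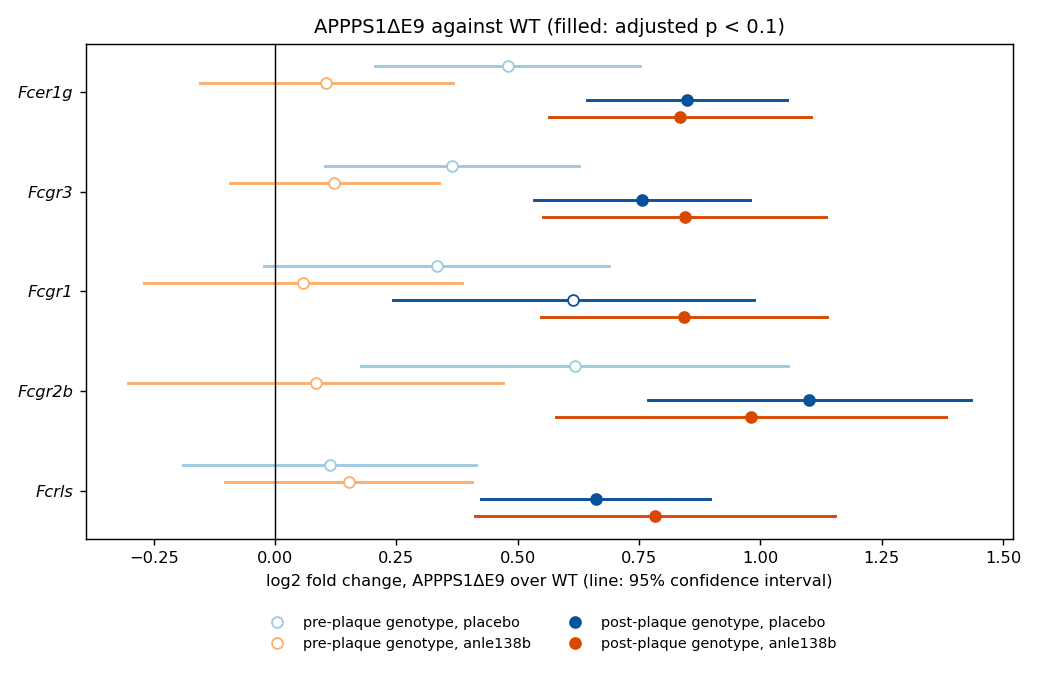
Log2 fold change of APPPS1ΔE9 over WT for the 5 tested members, by age and chow, with 95% confidence intervals. Filled points passed an adjusted p under 0.1. The 10-month points lie between 0.61 and 1.10, all with intervals above 0, and the 6-month points between 0.06 and 0.62, none of them filled.

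At 6 months no member was called in either chow. The comparison asks which genes differ at 6 months, when the paper already counted plaques, with less severe pathology than in the post-plaque group. On placebo 0 of 5 tested members passed, beside 0.0715% of all tested genes, and on anle138b 0 of 5, beside 0.047%. Over both chows it was 0 of 5, beside 0.218%. At an unadjusted p under 0.05, edgeR gave 3 of 5 members on placebo, beside 1858 of all 16774 tested genes. On anle138b it gave 0 of 5, beside 961 of 17033. DESeq2 called 0 members on either chow. With no filter on low counts, Fcer1g was called on placebo (adjusted p = 0.052). On placebo, Fcer1g was at 7.02, 7.996, 8.96 and 9.64 CPM in WT and at 9.85, 11.2, 11.97 and 13.8 CPM in APPPS1ΔE9 mice. Fcgr2b was at 2.86, 3.76, 4.58 and 4.91 CPM in WT and at 5.07, 5.13, 6.02 and 8.42 CPM in APPPS1ΔE9 mice. Fcgr3 was at 10.53, 11.4, 11.7 and 12.9 CPM in WT and at 13.03, 13.6, 14.1 and 19.1 CPM in APPPS1ΔE9 mice. These 3 members did not overlap between the genotypes, whereas Fcgr1, Fcgr4 and Fcrls did, so that every APPPS1ΔE9 value was the higher in 3 of 5 tested members, beside 2.59% of all tested genes.

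The log2 differences of these 3 members on placebo were 0.48 ± 0.13 (SE; edgeR adjusted p = 0.31) for Fcer1g, 0.62 ± 0.20 (adjusted p = 0.36) for Fcgr2b and 0.36 ± 0.12 (adjusted p = 0.36) for Fcgr3. Each had an exact permutation p of 0.029, the smallest that 4 against 4 mice allow. Without replicate 1 of the placebo-treated APPPS1ΔE9 mice, Fcer1g was called (log2 difference 0.55, adjusted p = 0.081). Replicate 4 of that group was the highest of its 4 mice for all 6 members, and without it the 3 log2 differences were 0.39, 0.42 and 0.22. Fcgr1 differed by 0.33 (95% interval −0.02 to 0.69) and Fcrls by 0.11 (−0.19 to 0.41). Of these WT mice, the 3 with high Xist had a mean Fcrls level of 31.4 CPM and the other 1 of 21.2 CPM, and Fcgr2b was at 4.42 and 2.86 CPM. Against that single WT mouse, which is assumed to vary like the others, the log2 difference was 0.55 for Fcrls and 1.10 for Fcgr2b, and 0 members were called.

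Among the anle138b-treated mice at 6 months, the genotypes overlapped for all 6 members. Every APPPS1ΔE9 value was above every WT value in 0 of 5 tested members, beside 1.9% of all tested genes. The log2 differences were 0.06 to 0.15, and the intervals reached 0.37 for Fcer1g, 0.39 for Fcgr1, 0.47 for Fcgr2b, 0.34 for Fcgr3 and 0.41 for Fcrls. The log2 differences seen at 10 months were outside these intervals for all 5 members. Without the 2 WT libraries of high Xist, they were 0.20 for Fcer1g, 0.26 for Fcgr1, 0.31 for Fcgr2b, 0.24 for Fcgr3 and 0.30 for Fcrls, with 0 called. Fcgr4 rested on 0, 1, 2 and 3 counts in WT and on 4, 5, 5 and 11 counts in APPPS1ΔE9 mice, close to the limit of detection.

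In a direct test of the genotype difference between the cohorts, all 5 members had a larger log2 difference at 10 than at 6 months, but none passed. On placebo the excess was 0.28 to 0.54, with the smallest adjusted p at 0.69 (Fcrls, unadjusted p = 0.0070), and 0 of 5 members were called, beside 0% of all tested genes. On anle138b it was 0.64 to 0.90, with unadjusted p of 0.00094 (Fcer1g) to 0.016 (Fcrls) and edgeR adjusted p of 0.35 to 0.80, and 0 of 5 were called, beside 0.028%. DESeq2 called Fcer1g (adjusted p = 0.097) and Fcgr3 (adjusted p = 0.0999) in the latter and 0 members in the former. The cohorts share no mice, and age cannot be told apart from cohort and sequencing lane. Fcrls also had a lower level in the WT mice of the older cohort, 19.9 ± 2.66 (SD, n = 5) against 28.9 ± 5.18 CPM (n = 4) on placebo, while Fcgr2b was at 3.93 ± 0.551 and 4.03 ± 0.919 CPM.

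Treatment with anle138b did not change any member past the threshold. The comparison asks whether the compound alters expression within a genotype, and it shares its groups with the genotype comparisons above. In each of the 4 comparisons 0 of 5 tested members were called, beside 0% of all tested genes in the WT mice at 6 months, 0.0529% in the APPPS1ΔE9 mice at 6 months, and 0% in the WT and 0% in the APPPS1ΔE9 mice at 10 months. At an unadjusted p under 0.05, edgeR gave 2 of 5 members in the APPPS1ΔE9 mice at 6 months, beside 2233 of all 17009 tested genes. It gave 0 of 5 in the other 3 comparisons. Beside these were 310 of 16766 genes in the WT mice at 6 months, and 212 of 16986 in the WT and 254 of 17110 in the APPPS1ΔE9 mice at 10 months. DESeq2 called 0 members in all 4 comparisons.

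The APPPS1ΔE9 mice of the pre-plaque group were the only group in which all 5 tested members had lower values on anle138b. Here the placebo-treated mice were all sequenced on lane 5 and the anle138b-treated mice all on lane 6. Chow and lane therefore cannot be told apart in this comparison, whereas the chows shared a lane in the APPPS1ΔE9 mice at 10 months. Fcer1g was at 9.85, 11.2, 11.97 and 13.8 CPM on placebo and at 8.65, 8.77, 8.99 and 12.04 CPM on anle138b, a log2 difference of −0.28 ± 0.13 (SE; 95% interval −0.57 to −0.0036; edgeR adjusted p = 0.38). Fcgr2b was at 5.07, 5.13, 6.02 and 8.42 CPM on placebo and at 3.52, 4.20, 4.82 and 5.35 CPM on anle138b, a log2 difference of −0.46 ± 0.18 (−0.85 to −0.07; adjusted p = 0.35). Both members overlapped between the chows. Fcgr3 differed by −0.20 (−0.47 to 0.06), Fcgr1 by −0.22 (−0.57 to 0.13) and Fcrls by −0.12 (−0.30 to 0.06). The median log2 difference of the 5 members was −0.22, and that of all tested genes −0.0022. In the same comparison the median was −0.15 for the microglia markers, with 2 of 11 higher on anle138b. It was −0.23 for the ITAM signaling genes, with 1 of 18 higher, and 1.18 for the choroid plexus markers, with 5 of 5 higher. Of each list 0 were called, beside 0.0529% of all tested genes. The part of these genes in the values of the members was not tested. Without replicate 4 of the placebo-treated mice, the values for Fcer1g and Fcgr2b were −0.19 and −0.27.

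At 10 months the 5 tested members differed between anle138b and placebo by 0.02 to 0.22 (log2) in the APPPS1ΔE9 mice. The lower ends of the intervals were −0.19 for Fcer1g, −0.20 for Fcgr3, −0.10 for Fcgr1, −0.34 for Fcgr2b and −0.22 for Fcrls, and the upper ends 0.31, 0.31, 0.53, 0.38 and 0.48. A return of any of these 5 to the WT level would have been a fall of 0.61 to 1.10, which lies outside these intervals. In the WT mice the differences were −0.15 to 0.09 at 6 months and −0.03 to 0.14 at 10 months. Fcgr4 had 4, 5, 5 and 6 counts in the placebo-treated and 0, 1, 2 and 3 counts in the anle138b-treated WT mice at 6 months (exact permutation p = 0.029, the smallest possible, among 48 such tests of the members). At 10 months, it had 2 to 5 and 2 to 8 counts in the WT mice.

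**Figure D4:**
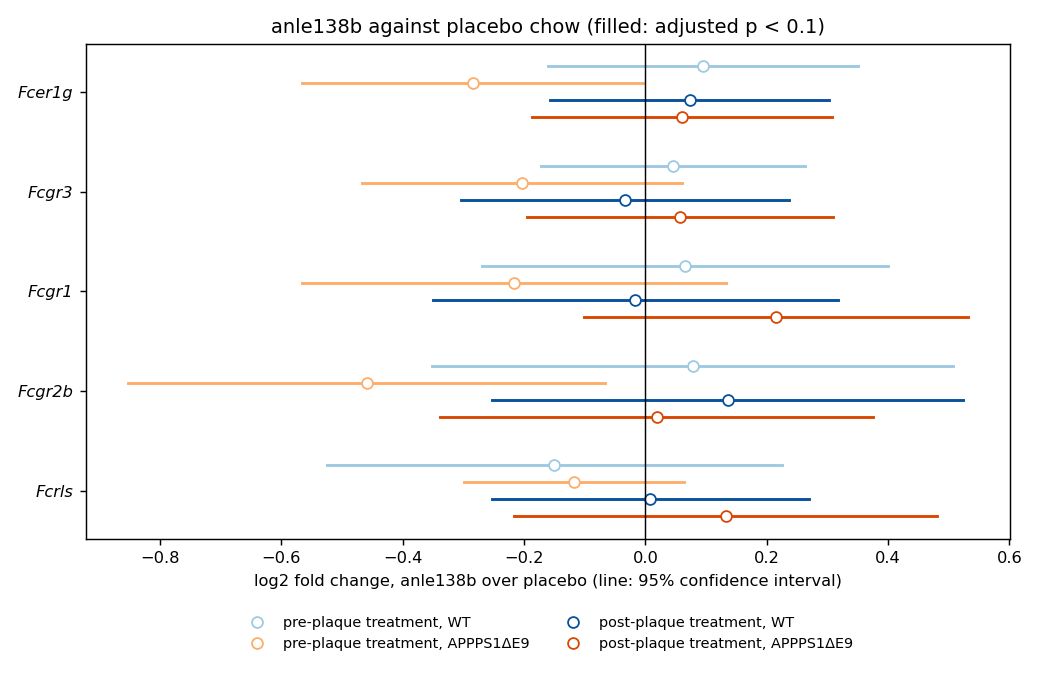
Log2 fold change of anle138b over placebo for the 5 tested members, by age and genotype, with 95% confidence intervals. No point is filled, since none passed an adjusted p under 0.1. The pre-plaque APPPS1ΔE9 points lie between −0.46 and −0.12 and the post-plaque APPPS1ΔE9 points between 0.02 and 0.22.

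The interaction of genotype and treatment was tested in a fit over the 4 groups of a cohort. At 6 months it was −0.37 ± 0.18 (SE) for Fcer1g (unadjusted p = 0.054) and −0.53 ± 0.29 for Fcgr2b (unadjusted p = 0.080), with edgeR adjusted p of 0.63 and 0.64, and 0 of 5 members were called, beside 0% of all tested genes. At 10 months it was −0.12 to 0.23 for the 5 members, with 0 of 5 called, again beside 0% of all tested genes. No gene was called in either cohort by edgeR. The unadjusted p was under 0.05 for 1390 genes at 6 months and 407 at 10 months, and DESeq2 called 28 and 2.

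The balance of activating over inhibitory receptor was followed by the ratio of Fcgr3 to Fcgr2b RPKM in each mouse, a quantity chosen after the values were seen. At 10 months it was 8.73 ± 1.18 (SD, n = 5) in WT and 6.88 ± 0.628 (n = 5) in APPPS1ΔE9 mice on placebo, and 7.83 ± 1.13 (n = 5) and 7.08 ± 0.621 (n = 7) on anle138b. The genotypes overlapped on both chows, as the plot of the ratio by group shows. The two-sided exact permutation p was 0.032 on placebo and 0.17 on anle138b, and 0.13 and 0.23 after adjustment over 4 comparisons. At 6 months the ratio was 9.91 ± 1.74 and 8.20 ± 0.802 in placebo-treated WT and APPPS1ΔE9 mice (n = 4 each; exact permutation p = 0.14) and 9.70 ± 1.86 and 9.81 ± 1.28 on anle138b (p = 0.94). The ratio therefore did not pass a test at either age, and the stretches shared by both transcripts limit it. Its size also depends on the exon lengths used, 1736 bases for Fcgr3 and 5790 for Fcgr2b, which are the same in all groups.

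Microglia markers were themselves higher at 10 months. The 11 markers, among them P2ry12, Tmem119 and Cx3cr1, had a summed level of 352 to 426 and 343 to 435 CPM in the WT mice on placebo and anle138b and of 458 to 619 and 433 to 653 CPM in the APPPS1ΔE9 mice. Over both chows 7 of 11 passed the test, beside 1.43% of all tested genes, and 0 fell. Their median log2 difference was 0.41, beside 0.80 for the 5 tested Fc receptor genes. Cx3cr1, the fractalkine receptor, rose by 0.46 ± 0.07 and Csf1r, the receptor for the microglial survival factor CSF1, by 0.43 ± 0.08 (log2, SE; edgeR adjusted p = 0.00067 and 0.0027). The part of microglial number in the values of the members was not tested.

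Relative to these markers, Fcer1g was at 17.2 to 20.4 CPM per 1000 CPM of summed microglia markers in the placebo-treated WT and at 23.1 to 30.1 in the placebo-treated APPPS1ΔE9 mice of the post-plaque group. Fcgr3 was at 24.04 to 28.4 and 29.4 to 41.2, and Fcgr2b at 8.35 to 13.8 and 14.25 to 18.8. These 3 of the 5 tested members did not overlap, beside 0.277% of all tested genes on the same scale. Fcgr1, at 5.81 to 10.1 and 6.97 to 10.47, and Fcrls, at 41.1 to 58.6 and 55.5 to 67.0, overlapped between the genotypes. On anle138b, Fcer1g (16.9 to 22.01 in WT and 23.1 to 28.3 in APPPS1ΔE9 mice) and Fcgr3 (21.2 to 27.2 and 29.01 to 34.7) did not overlap, 2 of 5 members beside 0.268% of all tested genes. Fcgr2b did overlap there, at 8.75 to 14.4 and 13.6 to 18.1. This scaling was added after the data were seen, and no test was run on it.

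**Figure D5:**
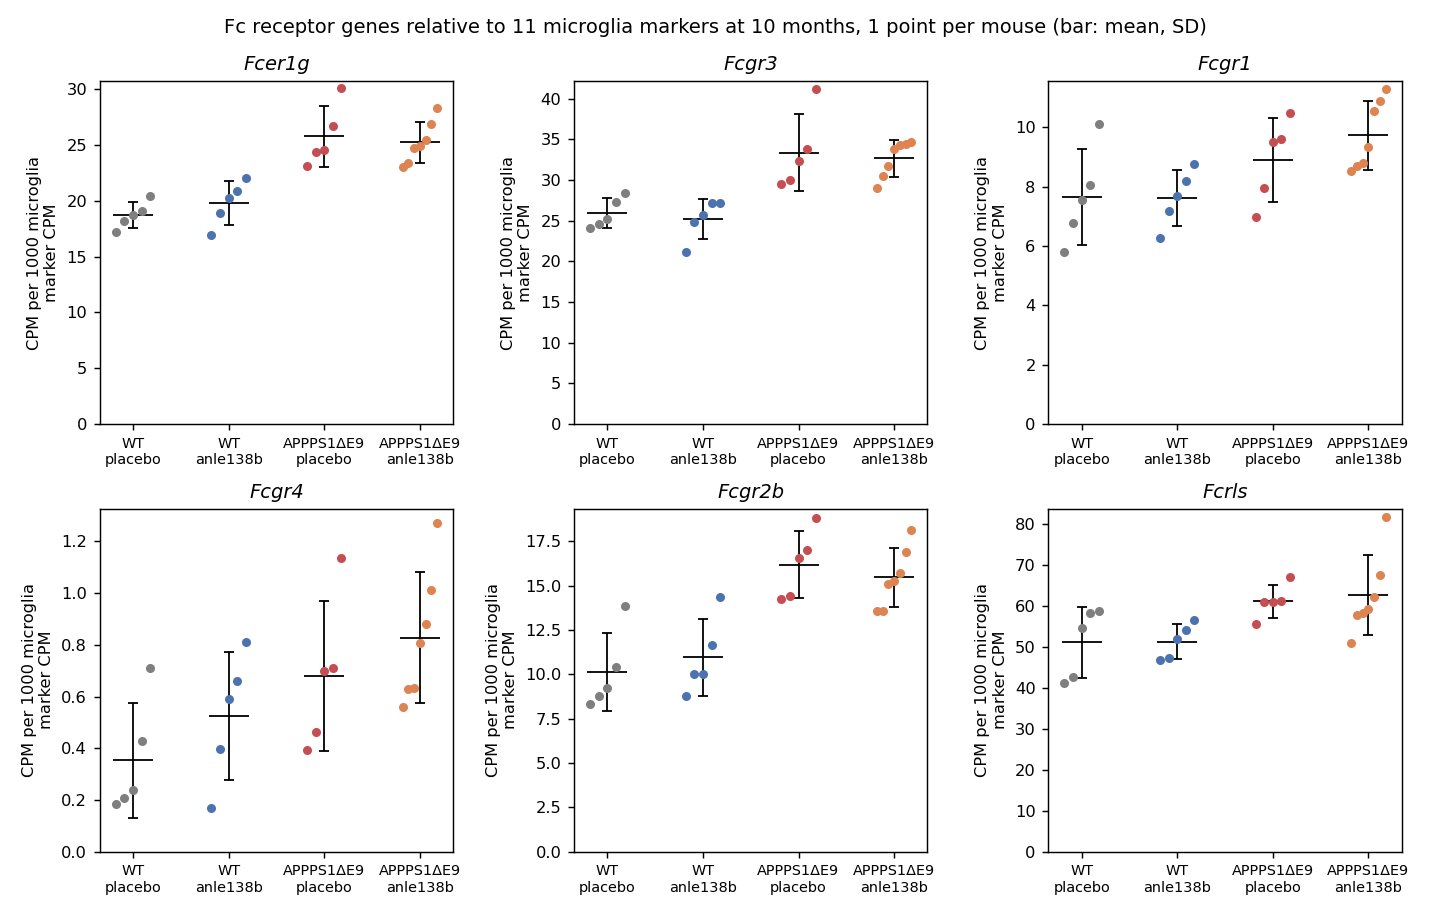
CPM of each member per 1000 CPM of the summed 11 microglia markers at 10 months, 1 point per mouse, with mean and SD. Fcer1g and Fcgr3 are separate between the genotypes on both chows, at 17.2 to 20.4 against 23.1 to 30.1 for Fcer1g on placebo. Fcgr1 and Fcrls overlap.

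Markers of the other cells that can carry Fc receptors were low or did not pass the test. Of 7 perivascular macrophage markers, 0 were called at 10 months over both chows, beside 1.43% of all tested genes. A higher level in APPPS1ΔE9 mice was seen for 1 of them. The summed level of the 7 was 28.7 to 44.7 CPM in placebo-treated WT and 23.8 to 35.5 CPM in placebo-treated APPPS1ΔE9 mice. Cd163, a scavenger receptor of these cells, had a log2 difference of −0.57 ± 0.16 (SE; edgeR adjusted p = 0.11). The 8 markers of monocytes and neutrophils summed to 0.397 to 7.74 CPM over the groups, with Ly6c2 at 0 in 13 libraries. The 8 markers of NK and T cells summed to 0.324 to 1.39 CPM and the 5 of B cells to 0.512 to 1.497 CPM. Of the mast cell list, Kit was at 36.9 to 186 CPM and is also expressed by neurons, while Cpa3, Mcpt4, Tpsb2, Cma1 and Ms4a2 were each under 1 CPM in every library. Of the 6 endothelial and 10 hippocampal neuron markers, 0 were called, beside the same 1.43%. At this share, 0 calls in lists this short do not set them apart from other genes. Of the 5 choroid plexus markers also 0 were called. Their median log2 difference was −0.71 on placebo, with 0 of 5 higher, and 1.93 on anle138b, with 5 of 5 higher, where 1 APPPS1ΔE9 library was at a summed 4331 CPM beside a group median of 86.2.

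IgG, the ligand of the Fcγ receptors, was low as transcript. Transcript in this tissue does not measure how much IgG protein the receptors meet. The IgG heavy chain genes Ighg1, Ighg2b and Ighg3 had a mean of 0.00745, 0.0716 and 0.00742 CPM and were at 0 in 34, 17 and 36 of 38 libraries. Ighg2c, the IgG2 subclass of C57BL/6 mice, reached 3.08 CPM. Of 10 immunoglobulin chains, 3 could be tested at 10 months over both chows and 0 were called, beside 1.43% of all tested genes. Ighm, the IgM heavy chain and the most abundant of them, was at 6.31 to 90.7 CPM, with a log2 difference of 0.46 ± 0.51 (SE; edgeR adjusted p = 0.97). Of 12 other Fc receptors and relatives, 4 could be tested and 0 were called, beside the same 1.43%, with a median log2 difference of 0.02. Fcrl1, an Fc receptor-like gene, had the smallest p of them, with a log2 difference of 0.37 ± 0.18 (SE; edgeR adjusted p = 0.75). Fcgrt, the neonatal Fc receptor that recycles IgG, was at 12.6 to 22.9 CPM over all libraries, with a log2 difference of −0.14 ± 0.09 (SE; edgeR adjusted p = 0.87), and Trim21, the cytosolic antibody receptor, differed by 0.14 ± 0.08 (adjusted p = 0.86). Fcer1a, the IgE-binding chain that also pairs with the γ chain, was at 0 in 32 of 38 libraries.

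Among the genes of ITAM signaling, several passed the test as higher in APPPS1ΔE9 mice, and Syk was not among them. Of 20 such genes, 19 were tested at 10 months over both chows. The test was passed by 5, beside 1.43% of all tested genes, and all 5 were higher in APPPS1ΔE9 mice. All 19 had a log2 difference above 0, with a median of 0.35. Tyrobp, the adaptor DAP12 with an ITAM like that of the γ chain, rose by 1.39 ± 0.10 (log2, SE; edgeR adjusted p = 1.6e-08), Lat2, a membrane scaffold, by 0.77 ± 0.13 (adjusted p = 0.0012) and Btk, a kinase of the same cascade, by 0.62 ± 0.10 (adjusted p = 0.0010). Syk, the kinase that both adaptors recruit, differed by 0.22 ± 0.11 over both chows (adjusted p = 0.77). On placebo it was at 5.31 ± 0.848 CPM (SD, n = 5) in WT and 5.80 ± 1.29 CPM (n = 5) in APPPS1ΔE9 mice, a log2 difference of 0.13 (edgeR adjusted p = 1). On anle138b it was at 5.11 ± 0.766 CPM (n = 5) and 6.38 ± 1.19 CPM (n = 7), a log2 difference of 0.32 (edgeR adjusted p = 0.84).

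On the inhibitory side, 3 of 14 tested genes were called, beside 1.43% of all tested genes, all 3 higher, with a median of 0.08 over the 14. Of the 3, Cd300lf, a lipid-sensing inhibitory receptor, passed the filter on low counts through the APPPS1ΔE9 mice. It was at 0.122 to 0.401 CPM in the WT mice and higher by 1.31 ± 0.26 (log2, SE). Its value and its place in the count are therefore descriptions. The others were Ptpn6, the phosphatase SHP-1, by 0.76 ± 0.10 (log2, SE; edgeR adjusted p = 7.2e-05), and Inpp5d, by 0.38 ± 0.09 (adjusted p = 0.035). Of 16 other ITAM-coupled receptors, 5 were tested and 3 called, beside the same 1.43% of all tested genes. They were Clec7a, the β-glucan receptor dectin-1, at 3.504 ± 0.22 (adjusted p = 1.3e-09), Trem2, the lipid receptor that signals through DAP12, at 1.35 ± 0.13 (adjusted p = 1e-06), and Clec5a at 0.59 ± 0.11 (adjusted p = 0.0035). Of these, Clec7a (1.80 ± 0.24, adjusted p = 0.0022) and Trem2 (0.51 ± 0.10, adjusted p = 0.051) were also called at 6 months over both chows, beside 0.218% of all tested genes. No Fc receptor gene was, with the largest log2 difference there at 0.35 ± 0.14 for Fcgr2b (adjusted p = 0.42).

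Across the 38 libraries the members followed each other and other microglial genes. These correlations are descriptions, since the libraries share groups, and genotype and age contribute to them. The highest Pearson r of log2 CPM between members was 0.93 (Fcer1g and Fcgr3) and the lowest 0.52 (Fcgr4 and Fcrls). After subtraction of the group means, Fcgr2b and Fcgr3, which share sequence, had r = 0.80, Fcgr2b and Fcrls 0.80, and Fcer1g and Fcgr3 0.72, while Fcer1g and Fcgr4 had 0.20. Members thus varied together also among mice of one group. With the sum of the microglia markers, r within groups was 0.76 for Fcer1g, 0.75 for Fcgr3, 0.69 for Fcgr2b, 0.65 for Fcrls, 0.54 for Fcgr1 and 0.23 for Fcgr4.

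The genes most like each member over all 38 libraries were Trem2 (r = 0.95), Tyrobp (0.94) and Mpeg1 (0.94) for Fcer1g. They included C1qb (0.93) and Ly86 (0.93) for Fcgr3, and Ly86 (0.86) and Tyrobp (0.84) for Fcgr1, and were Cd68 (0.92), Myo1f (0.92) and Cd84 (0.91) for Fcgr2b. For Fcrls they were Hexa (0.89), Ctsd (0.87) and C1qb (0.86), and for Fcgr4 Ly9 (0.76), Ptprc (0.72) and Arhgap9 (0.71). Tyrobp, Ly86 and C1qb, which encode an ITAM adaptor, a partner of a Toll-like receptor relative and a complement chain, each came up for 2 members. Within groups, Olfml3, a secreted protein of microglia, was the nearest gene to Fcgr2b (r = 0.82) and to Fcrls (r = 0.81), Laptm5 to Fcer1g (0.81), Ly86 to Fcgr3 (0.81) and Hcls1 to Fcgr1 (0.70). The nearest to Fcgr4 was Retreg1, at 0.62.

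One library combined several of the highest values. Replicate 3 of the anle138b-treated APPPS1ΔE9 mice at 10 months, the only APPPS1ΔE9 library with high Xist, was the highest of its 7 mice for Fcgr1 (6.90 CPM), Fcgr2b (11.8 CPM), Fcgr3 (22.6 CPM), Fcgr4 (0.828 CPM) and Fcrls (53.3 CPM), while 2 mice exceeded it for Fcer1g (15.04 CPM). Without it all 5 tested members were still called between the genotypes on anle138b, with log2 differences of 0.65 for Fcrls to 0.89 for Fcgr2b. Within the WT groups at 10 months, the mean Fcrls level was 21.7 CPM in the 3 mice with high Xist and 17.3 CPM in the other 2 on placebo, and 21.9 and 17.2 CPM on anle138b. Fcgr2b showed the same order, at 4.19 and 3.54 CPM on placebo and 4.98 and 3.28 CPM on anle138b. For Fcer1g these values were 7.34 and 7.32 CPM, and 8.08 and 7.18 CPM.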

How the data were processed

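RNA from the whole hippocampus of 38 mice was sequenced as TruSeq mRNA libraries. Per the labels and the study's methods, the authors mapped the reads to mm10 with STAR and deposited raw read counts per gene from HTSeq (intersection-nonempty mode). The annotation release and strand setting are not given in the sources used here. Groups came from the sample titles. No library was left out of the main fits. Within groups, no pair of libraries agreed within sampling noise (chi-square over degrees of freedom at least 3.18 in 75 pairs). Pairs across groups were not compared. Lanes are those of the labels.

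From the counts, genes that pass filterByExpr (minimum count 10, minimum total 15) received TMM factors, and group differences were fitted by quasi-likelihood in edgeR (R 4.3.3, edgeR 4.0.16, limma 3.58.1), separately for each pair of groups, with an adjusted p (Benjamini-Hochberg, over all tested genes) under 0.1. The interactions and the fits over both chows used 4 groups. SE is the log2 fold change over the square root of F. CPM uses TMM library sizes over all 38 libraries, and log2 CPM a prior count of 2. RPKM divides by union exon length (GENCODE M21, 48349 of 48709 genes matched). Two-sided exact permutation tests of CPM, added after seeing the data, compared each member between 2 groups. The members and lists were chosen with earlier results of these data known. From each list, the named genes are up to 3 with the smallest p in the 10-month comparison over both chows, with Tyrobp, Syk and Inpp5d in any case. Likeness was ranked over the genes that pass the filter over all 8 groups. Fcer1a, the IgG chains, Ly6c2, Kit and the other mast cell markers were named after their values were seen. One gene that the rules select is not reported here. The fits were tested on simulated data. Alternatives were DESeq2 (1.42.0), RLE factors, no filter, a threshold of 0.05, a Y-linked covariate, a replicate block, 4 groups in a single fit, single lanes, each library left out, and, added after seeing the data, the fits without libraries of high Xist.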

Additional observations from a re-analysis of the deposited data

Results flagged for a closer look

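In 3 of 48 groups of member values, a library had a gap to its nearest neighbour above Dixon's 95% critical value, and chance gives this in about 1 in 20 groups. In the anle138b-treated APPPS1ΔE9 mice at 6 months, replicate 4 was at 12.04 CPM for Fcer1g, with the next mouse at 8.99, and at 14.98 CPM for Fcgr3, with the next at 12.37. It was also the highest of its group for Fcgr1, Fcgr2b and Fcrls, and without it the log2 difference between the genotypes on anle138b was −0.02 for Fcer1g and 0.04 for Fcgr3. In the anle138b-treated APPPS1ΔE9 mice at 10 months, replicate 3 was at 53.25 CPM for Fcrls, with the next mouse at 34.91.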

How the results depend on the processing

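Over 14 comparisons, the count of called members was unchanged in 269 of 293 combinations of comparison and setting and changed in 24. At 10 months on placebo, where 4 members were called, 2 were with the Y-linked covariate, 3 with all 4 groups in a single fit and 0 without the libraries of high Xist, a setting chosen after seeing the data that leaves 2 WT mice. Leaving out single libraries gave 3 to 4, with Fcrls lost without replicate 2 of the WT mice (adjusted p = 0.10). On anle138b, where 5 were called, 4 were at a threshold of 0.05, 3 without the libraries of high Xist and 3 to 5 without single libraries, the fewest without WT replicate 1 or 2. Over both chows the 5 calls were made in every fit that left out a library. At 6 months on placebo, Fcer1g alone was called with no filter, and 0 to 1 members without single libraries. For the difference between cohorts on anle138b, 2 members were called by DESeq2 and 1 with the covariate. The cause of these changes was not tested.

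Replicate numbers were shared between groups, but in none of 8 comparisons did every same-numbered pair correlate above 0.1 (lowest −0.55, highest 0.57), and 0 to 3 samples correlated best with their own number. With the replicate block, 2 members were called on placebo and 0 on anle138b at 10 months, and 5 over both chows.

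Small differences that were not called changed sign. With the Y-linked covariate, the treatment difference in APPPS1ΔE9 mice at 10 months was −0.095 for Fcgr2b, −0.017 for Fcgr3 and −0.028 for Fcrls, and the interaction for Fcrls was −0.077 at 6 and −0.012 at 10 months. Within lane 4, Fcgr3 differed by 0.036 between chows in the WT mice at 10 months. Without single libraries, the genotype difference at 6 months was −0.012 to 0.17 for Fcrls on placebo, and −0.021 to 0.15 for Fcer1g, −0.036 to 0.19 for Fcgr1 and −0.026 to 0.22 for Fcgr2b on anle138b. The treatment difference in WT mice at 6 months was −0.069 to 0.16 for Fcgr1, −0.062 to 0.19 for Fcgr2b and −0.0030 to 0.11 for Fcgr3, and at 10 months −0.017 to 0.12 for Fcer1g, −0.12 to 0.046 for Fcgr1, −0.11 to 0.060 for Fcgr3 and −0.056 to 0.071 for Fcrls. In APPPS1ΔE9 mice at 10 months it was −0.077 to 0.10 for Fcgr2b, −0.0086 to 0.11 for Fcgr3 and −0.0042 to 0.21 for Fcrls. The interaction was −0.057 to 0.16 for Fcrls at 6 months, and at 10 months −0.069 to 0.075 for Fcer1g, −0.22 to 0.0065 for Fcgr2b, −0.00099 to 0.16 for Fcgr3 and −0.011 to 0.20 for Fcrls.

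Counts over all genes moved more. Between genotypes at 6 months on placebo, 12 genes were called, against 89 by DESeq2, 110 with no filter, 4 with the covariate, 35 in a single fit, 7 without high Xist, where a single WT mouse is left, and 6 to 205 without single libraries. On anle138b they were 8, against 42 by DESeq2, 13 with the replicate block and 9 to 44 without single libraries, and over both chows 38, against 21 at a threshold of 0.05, 173 by DESeq2, 25 with no filter, 7 with the covariate, 5 without high Xist and 11 to 61 without single libraries. At 10 months on placebo they were 55, against 113 by DESeq2, 14 with the covariate, 25 with the replicate block and 8 without high Xist. On anle138b they were 124, against 77 at a threshold of 0.05, 188 by DESeq2, 272 with the covariate, 20 with the replicate block, 51 without high Xist and 63 to 151 without single libraries, and over both chows 252, against 154 without high Xist. For treatment in APPPS1ΔE9 mice at 6 months they were 9, against 205 by DESeq2, 120 with no filter, 71 with the covariate, 3 in a single fit and 6 to 317 without single libraries. For the cohorts on anle138b they were 5, against 2 at a threshold of 0.05, 42 by DESeq2, 17 with the covariate, 15 with the replicate block and 2 to 23 without single libraries. Where 0 genes were called, DESeq2 called 2 for treatment in WT mice at 6 months, 28 and 2 for the interaction at 6 and 10 months and 14 for the cohorts on placebo, lane 4 alone gave 1 for treatment in WT mice at either age, and leaving out single libraries gave up to 22 for the interaction at 6 months. The libraries of 15847985 to 31895808 counts gave Fcgr4 at most 18 counts, which limits its comparisons.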
